A study of Mus musculus with 25 samples.

Results

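The Obox genes (oocyte specific homeobox) encode transcription factors with a paired-like homeodomain, and their RNA was followed here in mouse 2-cell embryos and blastocysts. The family was taken as every row named Obox1, Obox2, Obox3, Obox5 or Obox6 in the deposited expression tables, which gave 5 loci of the 24708 loci listed, 1 per symbol. Expression was read as FPKM, fragments scaled to the length of the transcript and to the mapped fragments of the library. A level is thus relative to the other RNA of its library, and a change in that RNA shifts levels between libraries. All 11 expression libraries of the series' 25 samples were used, and all came from whole embryos of the BDF1 strain. The 6 libraries of 2-cell embryos at embryonic day 1.5 were labelled WT, sIVF and IVF, with 2 libraries each. IVF is in vitro fertilisation, and sIVF is used as the label gives it, without an expansion. The 5 blastocyst libraries at embryonic day 4.0 were labelled Fzr1-OE (3 libraries) and Control (2 libraries). Fzr1 encodes an activator of the anaphase-promoting complex, a ubiquitin ligase of the cell cycle. How Fzr1 was raised, what the Control embryos received, how the WT and blastocyst embryos were conceived and how many embryos went into a library were not stated in the labels. The 6 H3K9me3 and input libraries and the 8 fat samples were not analysed here.

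Homeodomain proteins bind DNA through a helix that reads short sites, and paired-like members such as Crx and Otx2 are known for binding sites with the core TAATCC. The Obox family is a rodent cluster of tandem copies. Obox1, Obox2 and Obox5 are known as transcripts that the growing oocyte stores and hands to the embryo, whereas Obox3 is transcribed by the embryo itself when its genome is switched on. Obox proteins are known to act redundantly in embryonic genome activation, and Obox6 has also been used to raise the yield of reprogramming to pluripotency.

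The members lie side by side on chromosome 7. In the deposited mm9 coordinates, Obox2 spans 15974200 to 15983892, Obox1 16132606 to 16142195, Obox3 16210655 to 16225126, Obox5 16335719 to 16344623 and Obox6 16418599 to 16425028. The 5 loci cover 450.8 kb with gaps of 68.5 to 148.7 kb, and 0 other loci of the tables lie in that span. Exons are not stated, since the tables give whole loci only.

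RefSeq promoter windows (GRCm38.p6) were found for 4 of the 5 members. The 250 bases before the annotated start are shown because they make visible how much sequence the neighbouring copies share. Each is written 5′ to 3′ on the gene's strand. In Obox1, Obox3 and Obox5 the capitals mark a 25-base run common to all 4 windows, then the TATA-like letters TATATAA. In Obox2 the 153 capitals mark the upstream part of a 203-base stretch that is identical in the Obox1 window. The windows are Obox1 at chr7:15547007-15547256 (forward strand), Obox2 at chr7:15388601-15388850 (forward), Obox3 at chr7:15639778-15640027 (reverse) and Obox5 at chr7:15750120-15750369 (forward).
Obox1: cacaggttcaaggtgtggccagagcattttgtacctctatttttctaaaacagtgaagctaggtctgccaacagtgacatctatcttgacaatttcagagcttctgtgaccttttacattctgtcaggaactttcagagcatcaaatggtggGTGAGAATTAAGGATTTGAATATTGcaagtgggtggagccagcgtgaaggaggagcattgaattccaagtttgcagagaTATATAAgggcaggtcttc
Obox2: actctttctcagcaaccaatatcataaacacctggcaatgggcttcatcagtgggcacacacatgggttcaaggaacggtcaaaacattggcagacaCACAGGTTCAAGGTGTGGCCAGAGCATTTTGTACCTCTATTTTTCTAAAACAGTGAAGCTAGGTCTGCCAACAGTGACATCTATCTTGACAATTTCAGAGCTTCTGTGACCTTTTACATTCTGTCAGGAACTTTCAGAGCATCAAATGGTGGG
Obox3: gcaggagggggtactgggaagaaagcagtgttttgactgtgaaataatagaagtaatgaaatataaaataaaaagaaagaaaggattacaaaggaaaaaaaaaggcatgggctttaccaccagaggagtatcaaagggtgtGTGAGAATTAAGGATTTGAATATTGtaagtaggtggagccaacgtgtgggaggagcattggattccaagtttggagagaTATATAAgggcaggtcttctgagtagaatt
Obox5: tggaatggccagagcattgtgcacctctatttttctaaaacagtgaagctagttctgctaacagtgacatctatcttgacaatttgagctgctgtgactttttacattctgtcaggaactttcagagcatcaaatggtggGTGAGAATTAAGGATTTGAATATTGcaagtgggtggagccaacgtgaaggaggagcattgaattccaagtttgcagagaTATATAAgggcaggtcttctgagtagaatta

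Over windows that also include the 50 bases after the start, Obox1 and Obox2 matched at 203 of 203 overlapping bases, with the annotated starts set apart along the same sequence. Obox1 and Obox5 matched at 78.1% of 288 bases, Obox3 and Obox5 at 65.9% of 299 and Obox1 and Obox3 at 63.7% of 289. Obox2 and Obox5 matched at 68.6% of 191 bases. Each pair was set at the ungapped offset with the most matching bases. For Obox2 and Obox3 that gave 32.0% of 291 bases and did not line up the 25-base run that both hold. The value for this pair is therefore no measure of how alike the windows are. The 25-base run GTGAGAATTAAGGATTTGAATATTG was present in 5 of 32851 RefSeq promoter windows, those of Obox1, Obox2, Obox3, Obox5 and Obox7, another copy of the family. In Obox2 the run extends past the annotated start and is not shown in full. TATATAA, chosen after the sequences were seen, was found on either strand in 3 of the 4 members (Obox1, Obox3 and Obox5), against 3.24% of all windows. Its first base lay 19 bases before the start in Obox1, 30 in Obox3 and 31 in Obox5. The Obox2 window ends before the place that would match the TATATAA of Obox1, so a copy there could not be seen. The homeodomain core TAATCC was found on either strand in 1 of the 4, as GGATTA 168 bases before the start of Obox3, against 7.06% of all windows. The 2 motifs do not overlap each other, and a match or its absence describes letters only.

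From the deposited bounds, the libraries held an implied 4740000 to 6380000 fragments in 2-cell embryos and 9320000 to 10480000 in blastocysts, with 10085 to 11860 and 13658 to 13947 loci above 0. Of 15 housekeeping genes looked at, 1 or 2 were listed at 0 in each WT and sIVF library and 0 in every IVF and blastocyst library, so a single 0 in a 2-cell library can be a missed gene. Libraries of 1 stage correlated across loci at 0.917 to 0.937 in 2-cell embryos and 0.984 to 0.990 in blastocysts. Marker genes mostly matched the labelled stages: 15 trophectoderm and inner cell mass genes summed to 3639 to 5710 FPKM in the blastocysts and 12.8 to 24.7 FPKM in the 2-cell libraries, and 28 loci of transcripts typical of the 2-cell stage to 17.0 to 89.2 FPKM and 259 to 383 FPKM. The keratins Krt8 and Krt18 carry most of the blastocyst sum. In Control blastocysts against WT 2-cell embryos, 13 of the 15 genes were higher and 2, Fgf4 and Gata4, lower. The targeted gene did not follow its label. Fzr1 stood at 15.1 ± 2.19 FPKM (SD, n = 3) in the libraries labelled Fzr1-OE and at 16.5 FPKM in both Control libraries. Nothing in the labels ties replicates to separate animals or cultures. The p-values therefore measure the spread between these libraries, which may be technical.

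In 2-cell embryos all 5 members were present in every library, and Obox6 was far above the rest. Obox6 measured 400.2 and 297 FPKM in WT, 429 and 473 FPKM in sIVF and 419 and 246 FPKM in IVF. It ranked between 107 and 222 among the 24708 loci and made up 66.6% to 75.7% of the FPKM summed over the family. The lowest library was IVF replicate 2 and the highest sIVF replicate 2, 1.93-fold apart. Its deposited bounds, at 2.23% to 3.15% of the value, were much narrower than that distance, so counting error was small beside the differences between libraries.

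Obox5 was second in each of the 6 libraries, at 55.4 and 43.9 FPKM in WT, 65.9 and 83.1 FPKM in sIVF and 101 and 64.4 FPKM in IVF. Both WT libraries lay below the other 4. Its share of the family FPKM was 10.02% and 10.6% in WT, 11.1% and 13.3% in sIVF and 16.6% and 17.5% in IVF, so the groups did not overlap in share. The nearest libraries of WT and sIVF were close, at 10.6% and 11.1%. The shares of each other member overlapped between some of the groups. These shares are descriptions, with no test.

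Obox3, known as the member transcribed from the embryonic genome, measured 36.7 and 29.0 FPKM in WT, 50.6 and 33.5 FPKM in sIVF and 25.7 and 28.9 FPKM in IVF. The IVF libraries were the lowest pair, though IVF replicate 2 and WT replicate 2 were nearly equal, and WT and sIVF overlapped.

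The maternal pair Obox1 and Obox2 had the lowest medians over the 6 libraries, 23.3 and 19.6 FPKM. Obox1 measured 22.7 and 21.3 FPKM in WT, 31.7 and 26.2 FPKM in sIVF and 23.9 and 14.1 FPKM in IVF, so that both sIVF libraries were above the other 4. Obox2 measured 37.8 and 21.9 FPKM in WT, 17.3 and 8.87 FPKM in sIVF and 38.9 and 15.9 FPKM in IVF. Obox2 varied most of the 5, 4.39-fold between its lowest and highest library (coefficient of variation 52.4%, against 23.0% to 29.5% for the others), while its bounds were 7.27% to 17.0% of the value. Obox1 was the lowest member in both WT and both IVF libraries, and Obox2 was the lowest in both sIVF libraries. The deposited bounds of Obox1 overlapped those of Obox2 in WT replicate 2 and IVF replicate 2, and those of Obox3 in IVF replicate 1. The order in these libraries is therefore within counting error. In WT replicate 1 and IVF replicate 1 Obox2 stood above Obox3.

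**Figure D1:**
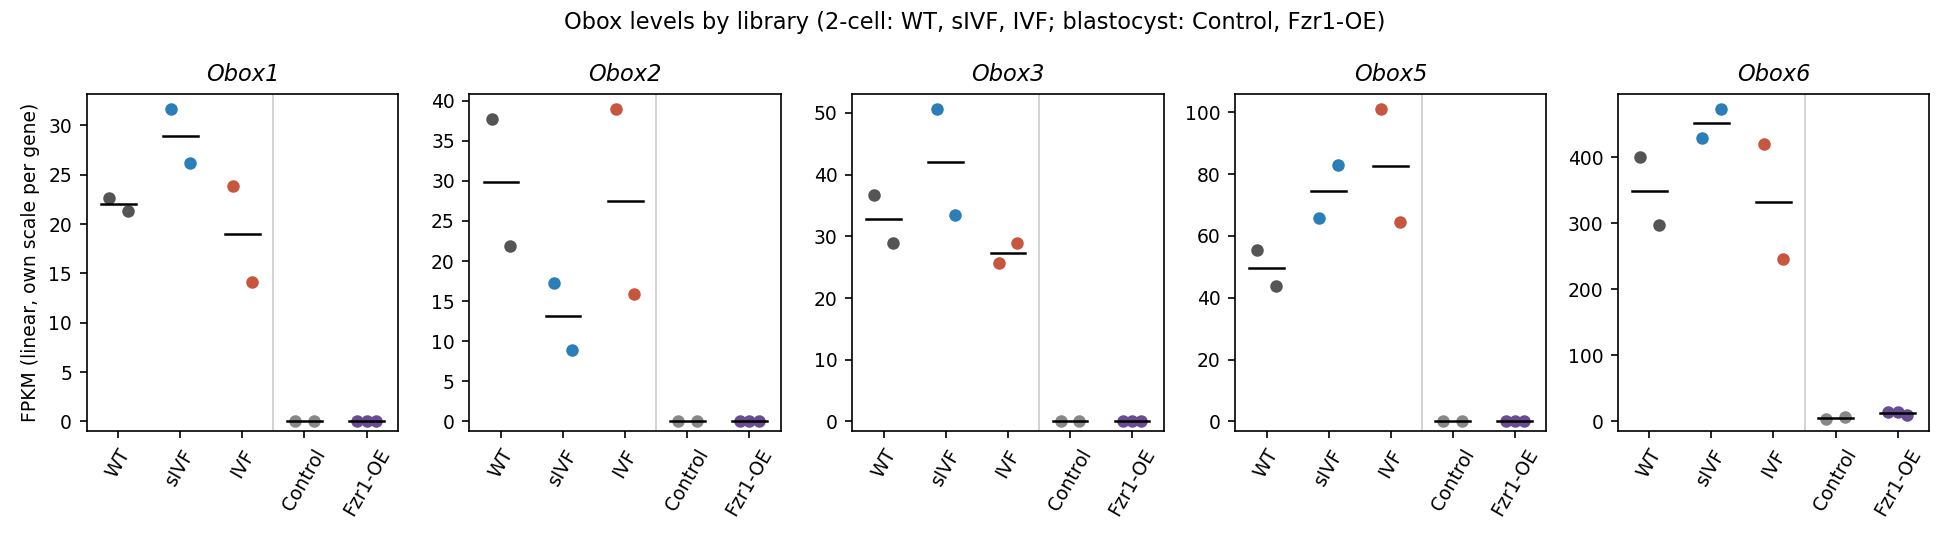
Level of each Obox gene (FPKM, linear, with its own scale per gene) in the 11 libraries, where each point is a library and each bar the group mean. All 5 genes were present in the 6 libraries of 2-cell embryos, 4 were listed at 0 in the 5 blastocyst libraries, and Obox6 remained at 4.13 to 14.6 FPKM in blastocysts.

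The balance between Obox2 and Obox1 differed between libraries. The ratio of Obox2 to Obox1 FPKM was 1.67 and 1.03 in WT, 0.547 and 0.339 in sIVF and 1.63 and 1.13 in IVF, so both sIVF libraries were below 1 and the other 4 above it. At the ratios of 1.03 and 1.13 the deposited bounds of Obox1 and Obox2 overlapped, so there the order is within counting error. The sum of the pair, which reads assigned to the wrong copy would leave nearly unchanged, was 60.4 and 43.2 FPKM in WT, 49.0 and 35.0 FPKM in sIVF and 62.9 and 30.03 FPKM in IVF, and there the groups overlapped. How fragments shared by near-identical copies were divided is not given in the sources used here, so the separate levels of Obox1 and Obox2 are uncertain. The ratio of Obox5 to Obox1 was 2.44 and 2.06 in WT, 2.08 and 3.18 in sIVF and 4.23 and 4.57 in IVF, with both IVF libraries above the rest. These ratios were chosen after the values were seen and are descriptions, with no test.

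**Figure D2:**
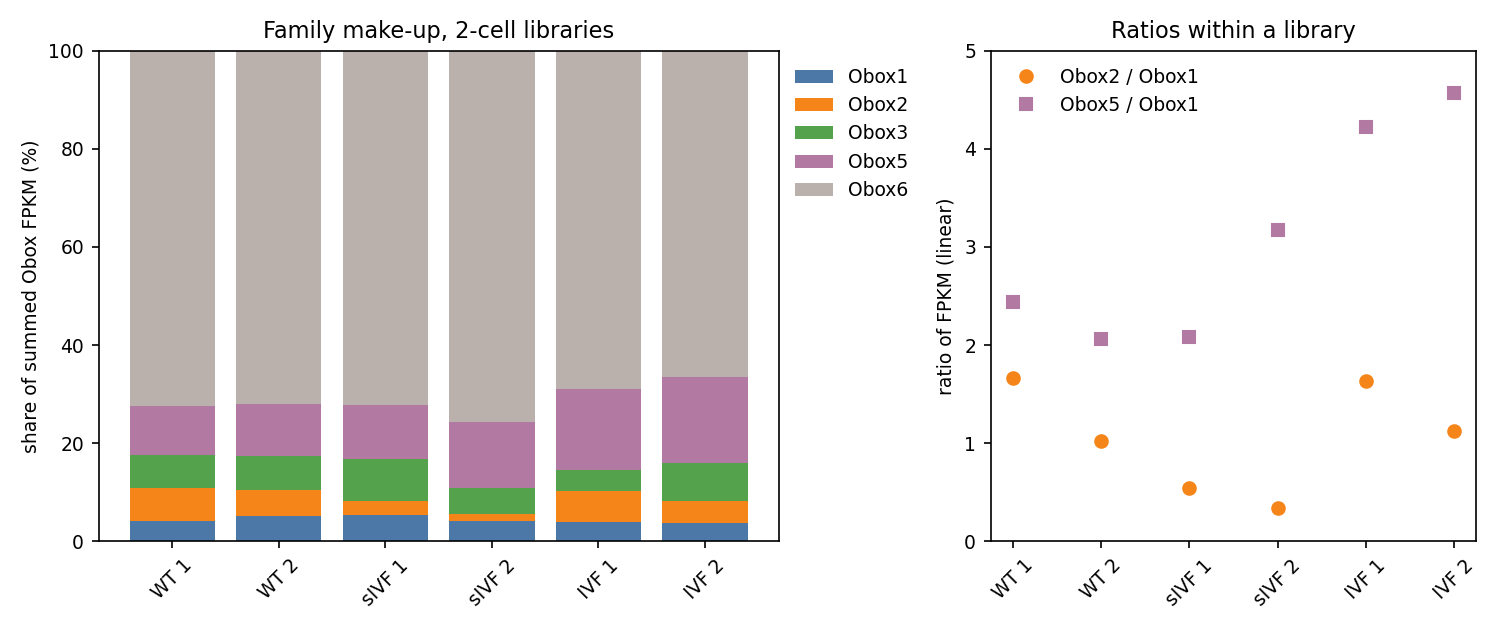
Left, the share of the summed Obox FPKM (%) held by each member in the 6 libraries of 2-cell embryos. Right, the ratio of Obox2 and of Obox5 to Obox1 FPKM (linear) within each library, with Obox2 to Obox1 at 0.547 and 0.339 in sIVF and at 1.03 or above elsewhere.

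Summed over the family, 2-cell libraries held 553 and 413 FPKM in WT, 595 and 624 FPKM in sIVF and 609 and 369 FPKM in IVF. WT and IVF overlapped, and IVF replicate 1 lay between the sIVF libraries. As a description over the 6 libraries, which also differ in group and depth, log2(FPKM + 1) of Obox1 and Obox6 had a Pearson r of 0.877, and Obox2 had an r of -0.23 to -0.01 with each of the other 4.

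The first comparisons set the 2-cell groups labelled WT, sIVF and IVF against one another. They share libraries pairwise, so they are not independent of one another. No member passed an adjusted p of 0.05 in any of them (limma on log2(FPKM + 1), 8246 loci averaging 1 FPKM or more, Benjamini-Hochberg adjustment over all loci tested). All 5 members were tested in each. Across all loci 1 passed in IVF against WT (0.0121%), 0 in sIVF against WT (0%) and 0 in sIVF against IVF (0%), beside 1024, 585 and 974 loci with an unadjusted limma p under 0.05.

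In IVF against WT, Obox5 had the largest difference among the members, with means of 82.7 ± 25.9 FPKM for the IVF libraries and 49.6 ± 8.12 FPKM for WT (SD, n = 2 each). Its log2 fold change was 0.70 (SE 0.30, 95% interval 0.0049 to 1.39), with a limma p of 0.0487 before and 0.399 after adjustment. Obox3 was lower in both IVF libraries than in both WT libraries, with a log2 fold change of -0.25 (95% interval -1.01 to 0.51, adjusted p 0.823). The nearest libraries, IVF replicate 2 (28.95 FPKM) and WT replicate 2 (28.98 FPKM), were almost equal. Their deposited bounds overlapped, at 26.5 to 31.4 and 26.6 to 31.4 FPKM. Obox1 (-0.24), Obox2 (-0.20) and Obox6 (-0.10) overlapped between the groups, and the value for Obox6 was 0.08 with upper-quartile scaling. Groups that did not overlap were seen for 2 of the 5 members, against 42.2% of all loci tested.

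In sIVF against WT, Obox2 had the largest difference among the members, at 13.1 ± 5.98 FPKM in sIVF and 29.8 ± 11.2 FPKM in WT (SD, n = 2 each). Its log2 fold change was -1.15 (SE 0.53, 95% interval -2.37 to 0.07), with a limma p of 0.0619 before and 0.735 after adjustment. Obox5 (0.58, adjusted p 0.746), Obox6 (0.38, adjusted p 0.791) and Obox1 (0.37, adjusted p 0.841) had higher values in both sIVF libraries, and Obox3 (0.33) overlapped. Groups did not overlap for 4 of the 5 members, against 35.9% of all loci tested. The members' median log2 fold change was 0.37, beside 0.06 over all loci.

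In sIVF against IVF, Obox1 (0.62, adjusted p 0.575), Obox3 (0.58, adjusted p 0.549) and Obox6 (0.49, adjusted p 0.526) had higher values in both sIVF libraries. Obox6 measured 451 ± 30.7 FPKM in sIVF and 332 ± 123 FPKM in IVF (SD, n = 2 each), and the 95% interval of its log2 fold change ran from -0.12 to 1.09. Obox2 (-0.95, 95% interval -2.17 to 0.27) and Obox5 (-0.12, 95% interval -0.82 to 0.57) overlapped between the groups. The value for Obox2 was -0.33 without IVF replicate 1 and -1.57 without IVF replicate 2. The 3 of 5 members without overlap stand beside 42.7% of all loci tested.

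**Figure D3:**
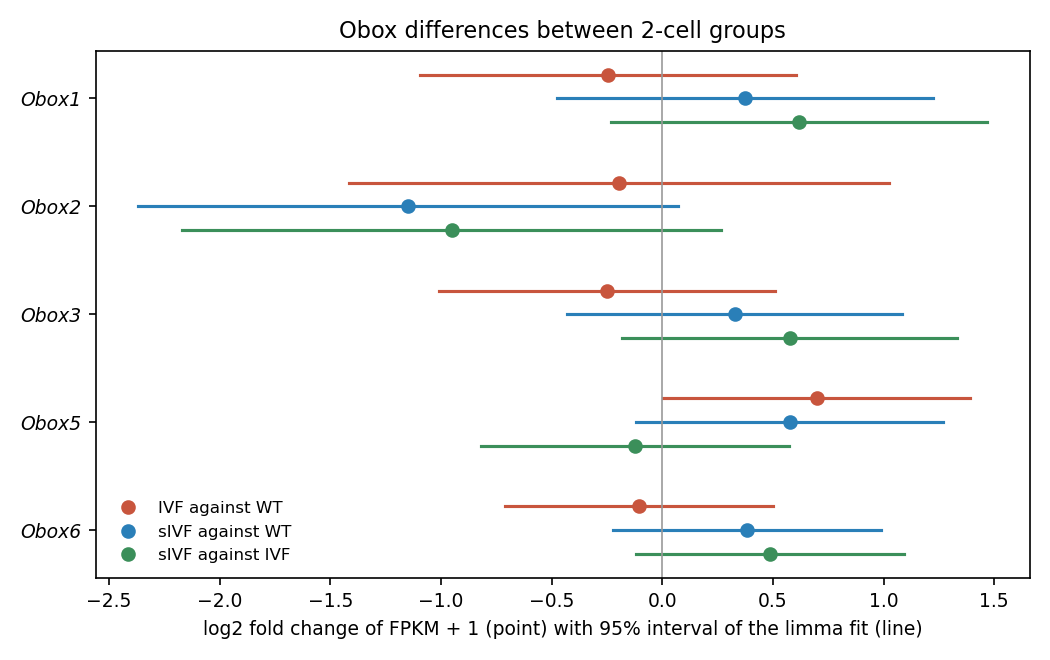
Log2 fold change of FPKM + 1 for each Obox gene between 2-cell groups (point) with the 95% interval of the limma fit (line), 2 libraries a group. The interval crosses 0 in 14 of the 15 comparisons, and that of Obox5 in IVF against WT starts just above 0.

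Other genes of the same setting were also without calls in the 3 comparisons. None of 23 tested regulators of embryonic genome activation, 21 tested transcripts typical of the 2-cell stage, 26 tested maternal oocyte transcripts or 5 tested homeobox genes passed. Maternal oocyte transcripts summed to 9677 to 9901 FPKM in WT, 11413 to 12325 FPKM in sIVF and 8726 to 9370 FPKM in IVF. A few abundant genes carry this sum, among them Omt2b, at 2532 and 3017 FPKM in WT and 4185 and 4135 FPKM in sIVF. Of the 26 maternal transcripts tested, 18 had log2 fold changes above 0 and 8 below in IVF against WT (median 0.34). The counts were the same in sIVF against WT (median 0.36). In sIVF against IVF, 12 were above 0 and 14 below, with a median of -0.10. The IVF sums lay below those of WT although most of the transcripts went the other way, so the sums do not stand for the list as a whole. Cumulus and granulosa markers, which would come from cells around the egg, summed to 1.63 to 8.75 FPKM in WT, 5.67 to 16.9 FPKM in sIVF and 9.41 to 17.3 FPKM in IVF, with 9 to 11 of the 14 genes listed at 0 in a whole group. Sperm markers were listed at 0 in WT and sIVF and summed to 0.102 to 3.25 FPKM in IVF. Blastocysts gave sums of 34.0 to 39.2 FPKM (Control) and 45.8 to 50.9 FPKM (Fzr1-OE) for the cumulus and granulosa list, mostly Serpine2. For the sperm list they gave 4.04 to 4.58 and 2.30 to 3.61 FPKM. Serpine2 was also 15.5 FPKM in sIVF replicate 1. These sums therefore do not single out cells around the egg or sperm. The part of these lists in the Obox differences was not tested.

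Between the stages all 5 members fell. Obox1, Obox2, Obox3 and Obox5 were listed at 0 in each of the 5 blastocyst libraries, so no fold is given for them. Obox6 remained, at 4.13 and 6.41 FPKM in Control blastocysts, against 400.2 and 297 FPKM in WT 2-cell embryos. The means were 349 ± 72.7 FPKM in WT 2-cell embryos and 5.27 ± 1.61 FPKM in Control (SD, n = 2 each), a ratio of 66.2, and the log2 fold change was -5.81 (SE 0.31, adjusted p 9.75e-07, limma on all 11 libraries). All 5 members were lower in this fit, against 19.6% of the 9762 loci tested, where 65.4% passed in either direction. The 4 members at 0 in blastocysts passed the filter on low values only through the 2-cell libraries, so this count is a description. The adjusted p-values of the other 4 ran from 7.04e-07 (Obox5) to 2.54e-05 (Obox2), and 5 libraries at 0 add no spread to those fits. Stage and library preparation cannot be told apart here, and in RNA from whole embryos fewer cells that express a gene and less RNA per cell cannot be told apart either.

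The fall of Obox6 exceeded the general shift between the stages. The median locus had a log2 fold change of 0.88 as deposited and -0.02 after quantile normalization, and the calls split into 4472 higher and 1909 lower as deposited and 2829 higher and 3033 lower after quantile normalization. Relative to the median locus, the log2 fold change of Obox6 was -6.69 in the first case and -6.56 in the second.

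**Figure D4:**
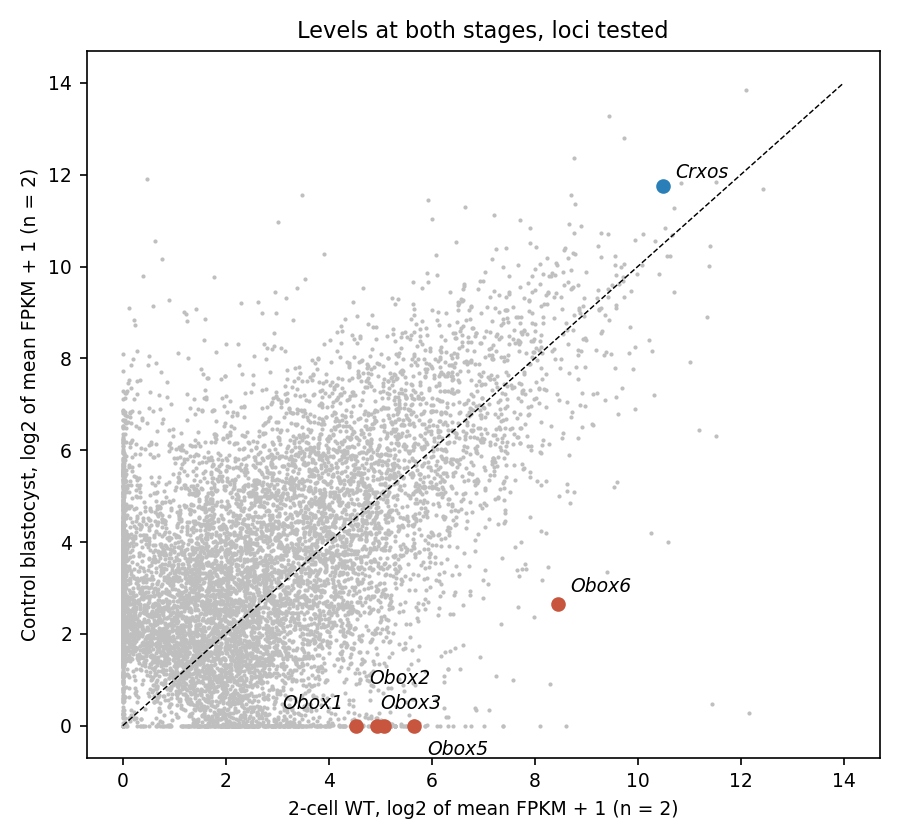
Mean level of each tested locus (log2 of mean FPKM + 1) in WT 2-cell embryos (horizontal, n = 2) and Control blastocysts (vertical, n = 2), with Obox genes in red, Crxos in blue and the line of equal level dashed. Obox1, Obox2, Obox3 and Obox5 lie at 0 on the vertical axis, Obox6 lies far below the line, and Crxos lies above it.

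Few loci present at the 2-cell stage were listed at 0 in every blastocyst library. Of 3114 loci with at least 5 FPKM in every 2-cell library, 39 (1.25%) were listed at 0 in all 5 blastocyst libraries, and 4 of the 5 Obox members were among them. By median 2-cell level Obox5 was number 8 of the 39, Obox3 number 15, Obox1 number 21 and Obox2 number 24. The same 39 held Btg4, a maternal factor that promotes decay of stored mRNA (median 133 FPKM), the oocyte-secreted protein gene Oosp1 (55.5 FPKM), Rfpl4 (37.0 FPKM) and Obox7 (12.7 FPKM). The minimum of 5 FPKM and these names were chosen after the values were seen.

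Crxos, a homeobox gene just beyond the cluster at 16467966 to 16489379 (chromosome 7, mm9), was higher at the later stage. It ranged over 1053 to 1536 FPKM in the 2-cell libraries and 2783 to 3607 FPKM in the blastocyst libraries. Its log2 fold change between Control blastocysts and WT 2-cell embryos was 1.26 (SE 0.13, limma), and 0.85 after quantile normalization. The paired-like gene Crx, between Obox6 and Crxos, was listed at 0 in every 2-cell library and reached at most 0.0202 FPKM in a blastocyst library.

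Among 8 tested homeobox genes outside the family, 4 rose and 1 fell between the stages. Pou5f1, a pluripotency factor, stood at 16.2 FPKM in Control blastocysts and 0.0602 FPKM in WT 2-cell embryos, and Cdx2, which sets up the trophectoderm, at 7.99 and 0.0382 FPKM. Hesx1 fell from 31.8 FPKM in WT 2-cell embryos to 3.31 FPKM in Control. It was listed at 0 in both sIVF libraries and stood at 8.89 and 2.79 FPKM in IVF, so this fall holds against WT and not for every 2-cell group. Of 23 regulators of genome activation, 5 rose and 11 fell (median log2 fold change -0.15), with Klf17 falling from 34.4 to 0.761 FPKM and Klf5 rising from 9.38 to 111 FPKM. Of 19 transcripts typical of the 2-cell stage, 0 rose and 16 fell (median -3.25). Of 23 maternal oocyte transcripts, 2 rose and 19 fell (median -3.21). Omt2b fell from 2774 to 0.384 FPKM, whereas Khdc3, which encodes a part of the subcortical maternal complex, rose from 0.700 to 1145 FPKM. The median of the 5 Obox members was -5.07, beside 0.88 over all loci as deposited, where the fitted value of a gene listed at 0 depends on the pseudocount of 1. Genes at or near 0 in 1 stage entered these lists through the other stage, so the counts are descriptions too.

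Within blastocysts, Obox6 was higher in the libraries labelled Fzr1-OE. It measured 14.6, 14.5 and 10.2 FPKM there and 4.13 and 6.41 FPKM in Control, and the groups did not overlap. The deposited bounds did not overlap either, the nearest being 8.82 to 11.6 FPKM for Fzr1-OE replicate 3 and 5.26 to 7.56 FPKM for Control replicate 2. Group means were 13.1 ± 2.52 FPKM (SD, n = 3) and 5.27 ± 1.61 FPKM (SD, n = 2), a ratio of 2.49. The log2 fold change was 1.18 (SE 0.23, 95% interval 0.66 to 1.69, adjusted p 0.0242, limma over 9439 loci). Of all loci tested, 4.21% passed and 2.29% passed as higher. The other 4 members were at 0 in both groups and were not tested.

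This call depended on the fit. With every locus above 0 tested and no filter, the adjusted p of limma was 0.17, and without the intensity trend it was 0.131. It was 0.0536 without Fzr1-OE replicate 1, 0.0815 without Fzr1-OE replicate 2, 0.148 without Control replicate 1 and 0.0642 without Control replicate 2. The log2 fold change stayed between 0.91 and 1.44 over 13 alternatives. Obox6 ranked between 3627 and 4362 among the loci in the Fzr1-OE libraries and between 5292 and 6259 in Control, so even the higher group was far from its 2-cell rank.

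**Figure D5:**
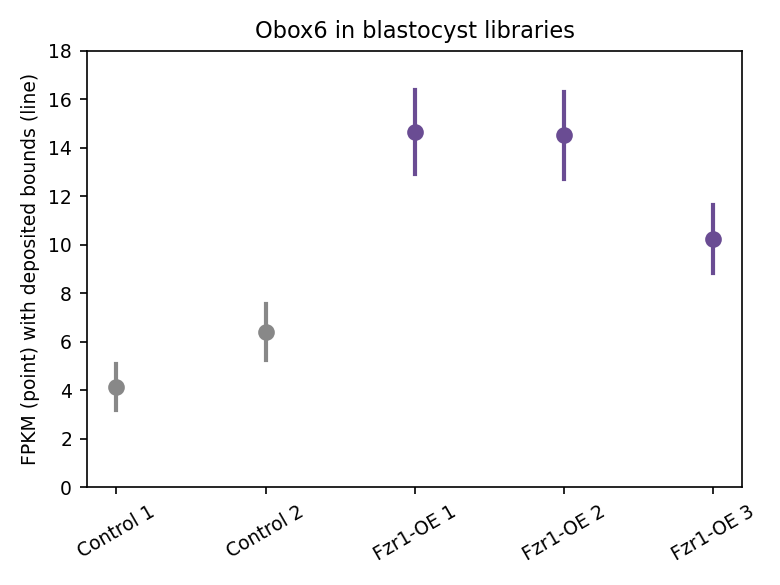
Obox6 FPKM in each blastocyst library (point) with the deposited lower and upper bounds (line), which cover counting error. The 3 Fzr1-OE libraries lie at 10.2 to 14.6 FPKM and the 2 Control libraries at 4.13 and 6.41 FPKM.

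Transcripts typical of the 2-cell stage moved in the same contrast. Of 11 tested, 9 rose and 0 fell (median log2 fold change 1.85, beside 0.01 over all loci), and the list of 28 loci summed to 82.8 to 89.2 FPKM in Fzr1-OE and 17.0 to 19.8 FPKM in Control. Of the 11, 8 averaged under 1 FPKM in Control and so were tested only through the Fzr1-OE libraries, which favours rises. Of the other 3 (Ddit4l, Sp110 and Ubtfl1), 2 rose, and Ubtfl1 did not pass. Ddit4l, an inhibitor of growth signalling through mTOR, stood at 14.4 FPKM in Fzr1-OE and 4.58 FPKM in Control (log2 fold change 1.46, SE 0.20). It measured only 1.14 to 7.40 FPKM in the 2-cell libraries, so in these data it was not highest at the 2-cell stage. That leaves Sp110 as the only riser that is both typical of the 2-cell stage here and above 1 FPKM in Control. Tdpoz4 stood at 6.61 FPKM and was listed at 0 in Control. Zfp352, a zinc finger gene of the 2-cell stage, stood at 2.92 FPKM and was listed at 0 in Control. Of this list 5 rose with no intensity trend, 3 without Control replicate 2 and 0 with no filter. The Tdpoz genes are close copies of one another, so their separate levels are uncertain. Zscan4a, Zscan4c, Zscan4d and Zscan4f, the best known genes of that stage, were listed at 0 in all 5 blastocyst libraries.

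Other lists moved less or the other way. Of 21 regulators of genome activation, 2 rose and 0 fell, among them Dppa2 at 352 FPKM in Fzr1-OE and 245 FPKM in Control. Of 8 maternal oocyte transcripts, 1 rose, Dppa3, with a log2 fold change of 0.31 (SE 0.04). Of 9 homeobox genes, 1 fell, Crxos, with a log2 fold change of -0.27 (SE 0.06), at 2841 FPKM in Fzr1-OE and 3428 FPKM in Control. Its adjusted p was 0.0296, and 0.0526 after quantile normalization (limma). Of 14 trophectoderm and inner cell mass genes, 1 rose (Gata6) and 4 fell. When any 1 of the 5 libraries was left out, 0 of the list rose and 2 to 4 fell. Krt18, a keratin of the trophectoderm, stood at 2393 FPKM in Fzr1-OE and 3864 FPKM in Control, and Krt8 at 989 and 1507 FPKM. The 15 genes of that list summed to 3639 to 3690 FPKM in Fzr1-OE and 5657 to 5710 FPKM in Control, with 0 of the 15 at 0 in either group. Krt18 and Krt8 carry most of both sums. Of the 14 genes tested, 6 had log2 fold changes above 0 and 8 below, so the sums do not stand for the list as a whole. Maternal oocyte transcripts summed to 5404 to 5731 FPKM in Fzr1-OE and 4778 to 4909 FPKM in Control. The part of these lists in the Obox6 difference was not tested.

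For each member the 3 loci with the most similar pattern were taken by Pearson r of log2(FPKM + 1) over the 11 libraries, among 7056 loci. The values describe libraries that share stage, group and depth. The closest to Obox1 were Fbxw28 (r = 0.999), Rfpl4 (0.999) and Btg4 (0.998), all at or near 0 in blastocysts. Obox3 was closest to Rfpl4 (0.998), Taf9 (0.998) and Tma16 (0.997), and Obox5 to Parp12 (0.999), Trim61 (0.998) and Usp16 (0.998). Obox2 had lower values, with Oog1 (0.990), Eif4e3 (0.988) and Ctsl (0.988) the closest. Obox6, which kept a measurable level in blastocysts, was closest to Gcsh (0.994), Selt (0.993) and Pcgf1 (0.993). Pcgf1, a Polycomb subunit gene, stood at 173 to 281 FPKM in 2-cell libraries and 9.19 to 13.7 FPKM in blastocysts.

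Over the 6 libraries of 2-cell embryos alone, where stage plays no part, other loci were closest (6891 searched, with the same kinds left out). They were Mknk2 for Obox1 (r = 0.993), Dctn3 for Obox2 (0.979), Mrpl45 for Obox3 (0.979), Fbxw15 for Obox5 (0.987) and Hmgn1 for Obox6 (0.983). With 6 libraries and this many loci, high values arise easily, and they are given as a description.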

How the data were processed

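Per the file headers, the authors deposited FPKM for each gene locus, with a lower and an upper bound, in a table per library laid out like Cufflinks output. Tools listed in the submitters' processing notes include HISAT2 2.1.0, Cufflinks 2.2.1, Cuffdiff and Trim Galore 0.6.4, without roles, and the build is mm9. Per the labels' protocols, cDNA was made directly from lysates and amplified before fragmentation. Whether counting used strand is not given in the sources used here. Groups came from sample titles. Starts are printed counting from 1.

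Here, log2(FPKM + 1) was tested two-sided with limma 3.58.1 under R 4.3.3 (lmFit, then eBayes with trend) on loci averaging 1 FPKM or more, in 1 fit of the 6 libraries of 2-cell embryos, 1 of the 5 blastocyst libraries and 1 of all 11 for the stages. Fold changes on this scale understate changes of low genes. The threshold was 0.05 for p adjusted by Benjamini-Hochberg over all loci tested. Depth was taken from the bounds as 2 Poisson standard deviations, so it covers counting error only. The steps were tested on simulated data. In WT replicate 2, 1 locus was marked as failed (Acsl4). Other software was statmod 1.5.0, matplotlib 3.10.9, numpy 2.4.6, pandas 2.3.3 and Python 3.11.15.

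The members, the 7 gene lists (other homeobox genes, regulators of genome activation, 2-cell transcripts, maternal oocyte transcripts, cumulus and granulosa markers, trophectoderm and inner cell mass markers, sperm markers) and the tests were chosen with earlier results of these data known. Named genes were all members, up to 3 passing genes per list, direction and comparison by adjusted p, and the 3 searched loci most like each member. Names outside this rule were chosen after their values were seen. Results were recomputed with upper-quartile scaling or quantile normalization, a minimum of 5 FPKM or no filter, a pseudocount of 0.1, no intensity trend, a replicate block, robust estimation, each replicate left out, and only the compared libraries in the fit. Promoters are from RefSeq (GRCm38.p6).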

Additional observations from a re-analysis of the deposited data

How the results depend on the processing

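The number of members passing stayed at 0 in the 3 comparisons of 2-cell groups under every alternative run. Between the stages it was 5 in each, which says nothing about stability, since 4 of the members are at 0 in all blastocyst libraries. In Fzr1-OE against Control it fell from 1 to 0 with no filter and with no intensity trend, and ranged from 0 to 1 when a replicate was left out, being 1 only without Fzr1-OE replicate 3. Over all loci, 397 passed there. Separate fits called 0 with no filter, 41 with no intensity trend, 350, 210 and 185 without Fzr1-OE replicates 1, 2 and 3, 177 without Control replicate 1 and 87 without Control replicate 2, where fewer libraries were fitted. Upper-quartile scaling gave 336 higher and 162 lower instead of 216 and 181. With a minimum of 5 FPKM, 21 loci passed in IVF against WT and 32 in sIVF against IVF, upper-quartile scaling gave 21 and 1, and quantile normalization 0 and 15. Upper-quartile scaling moved the median locus from 0.09 to 0.24 in IVF against WT and from -0.02 to -0.20 in sIVF against IVF. The cause of these shifts was not tested.

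Some signs and sizes between 2-cell groups were not stable. In IVF against WT, Obox6 turned to 0.0817 with upper-quartile scaling. Leaving out a replicate gave log2 fold changes of -0.61 to 0.12 for Obox1, -0.82 to 0.42 for Obox2 and -0.49 to 0.28 for Obox6 in IVF against WT, and of -0.44 to 0.20 for Obox5 and -1.57 to -0.33 for Obox2 in sIVF against IVF. With 1 library left in a group, its spread was assumed to be that of the others.

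Over loci averaging 1 FPKM or more, replicate numbers showed little pairing: deviations of same-numbered libraries correlated at -0.039 to 0.074. These values cannot decide it for a single gene. Obox1 and Obox2 were higher in replicate 1 than in replicate 2 of each 2-cell group, and Obox3, Obox5 and Obox6 were not. The block lowered the SE of Obox2 in IVF against WT from 0.53 to 0.35. With the replicate block, 0 members and 47 loci passed in Fzr1-OE against Control (Obox6 log2 fold change 1.34, adjusted p 0.0975), and the block changed no other count of members.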
